A study of Mus musculus with 6 samples.

Results

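The 10 genes described here encode the parts of the inflammasome and of pyroptosis: the sensors Nlrp3, Nlrc4, Naip2, Naip5 and Aim2, the adaptor Pycard, the proteases Casp1 and Casp4, the pore protein Gsdmd and the cytokine Il18. They were picked by gene name from the 54532 genes of the deposited tables, with earlier results of these data known. Of the 10, 9 passed the filter on low counts. RNA had been sequenced from RAW264.7, a mouse macrophage-like line derived from a tumour caused by Abelson leukaemia virus and grown in DMEM with serum. The libraries are 3 labelled as ERMAP knockdown by shRNA (a short hairpin RNA delivered by lentivirus), called shRNA-labelled here, and 3 labelled wild type, called control. The protocol text attached to every sample, controls included, names the shRNA lentivirus, so the labels do not settle whether control cells received a virus, and no control hairpin is described. Whether the 3 libraries of a group were grown as separate cultures is not stated, and p-values here reflect the spread among the 6 libraries alone, which may be technical. In bulk RNA, fewer cells that express a gene and less RNA per cell cannot be told apart.

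An inflammasome is a protein platform that assembles in the cytosol when a sensor meets a microbial product or a sign of damage. Sensors recruit the adaptor ASC, encoded by Pycard, which gathers and activates caspase-1, and caspase-1 then cleaves the precursors of the cytokines IL-1β and IL-18 and the pore protein gasdermin D. In a second route caspase-11, encoded in the mouse by Casp4, binds bacterial lipopolysaccharide in the cytosol and cleaves gasdermin D itself. Gasdermin D pores release the cytokines and lead to pyroptosis, a lytic form of cell death. In macrophages several of these genes are held low until a priming signal, and RAW264.7 is known as a line that lacks ASC.

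Depth and identity were alike in both groups. Summed counts per library ranged from 13447021 to 16602734. All 8 macrophage markers, among them Adgre1, Csf1r and Lyz2, passed the filter, and 7 of them showed no call, while Fcgr1, an interferon-responsive IgG receptor, was higher in the shRNA-labelled libraries. Markers of T cells, B cells, neutrophils, fibroblasts and epithelial cells each summed to at most 0.399 CPM (counts scaled to a common library size with TMM factors) in any library, and those of dendritic cells to 1.46 to 2.02 CPM in the shRNA-labelled libraries and 1.98 to 2.70 CPM in control. Ermap, the gene named as the target, had 10, 21 and 14 counts in the shRNA-labelled libraries and 12, 12 and 3 counts in control, so its mRNA gave no check of the label (log2 fold change 0.81, edgeR adjusted p = 0.929). Control replicate 1 stood apart: its deviation from the other controls followed the GC content of transcripts, and mitochondrial transcripts made up 3.69% of its counts, against 1.71% to 2.18% in the other 5 libraries. Each member is therefore also compared without it.

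Most of the machinery was expressed in both groups, with a gap at the adaptor. By FPKM (fragments per length of gene and per sequenced read), Gsdmd had the highest level, with a mean of 33.7 ± 2.17 FPKM in the shRNA-labelled libraries and 31.8 ± 5.26 FPKM in control (SD, n = 3 each). Casp1, Nlrp3 and Aim2 followed, with means of 20.2, 19.2 and 15.6 FPKM in the shRNA-labelled libraries and 19.7, 15.6 and 14.9 FPKM in control. Il18 and Naip2 formed the middle, at 9.88 and 6.62 FPKM in the shRNA-labelled libraries against 8.90 and 7.40 FPKM in control. Casp4 and Naip5 lay lower, at 1.94 and 1.66 FPKM in the shRNA-labelled libraries and 1.11 and 1.71 FPKM in control. Nlrc4 and Pycard were the lowest, at 0.401 and 0.0486 FPKM in the shRNA-labelled libraries and 0.232 and 0.0747 FPKM in control.

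On these listed lengths, Casp4 and Naip5 changed places between the groups and the other members kept theirs. Among the shRNA-labelled libraries the ranges of neighbours overlapped for Casp1 with Nlrp3 and for Casp4 with Naip5 and were apart elsewhere. In control, where the spread was wider, each of the 5 steps from Gsdmd down to Naip2 overlapped, as did Naip5 with Casp4, so the order of the upper 6 is not resolved there. The length the authors used matters to this order: 3710 bases are listed for Casp4 and 3501 for Aim2, against 1435 and 2839 bases for their longest protein-coding transcripts in GENCODE vM21. With transcript lengths, and if all counts came from that transcript, Casp4 would average 5.03 in the shRNA-labelled libraries and 2.86 in control, in the same units. That is above Naip5 at 1.66 and 1.71, so that this exchange of places would not occur. On the same terms Aim2 would average 19.3 in the shRNA-labelled libraries and 18.4 in control, against 19.4 and 15.8 for Nlrp3. The order of these sensors thus depends on the length used. Whether the counts came from those transcripts alone was not tested.

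**Figure D1:**
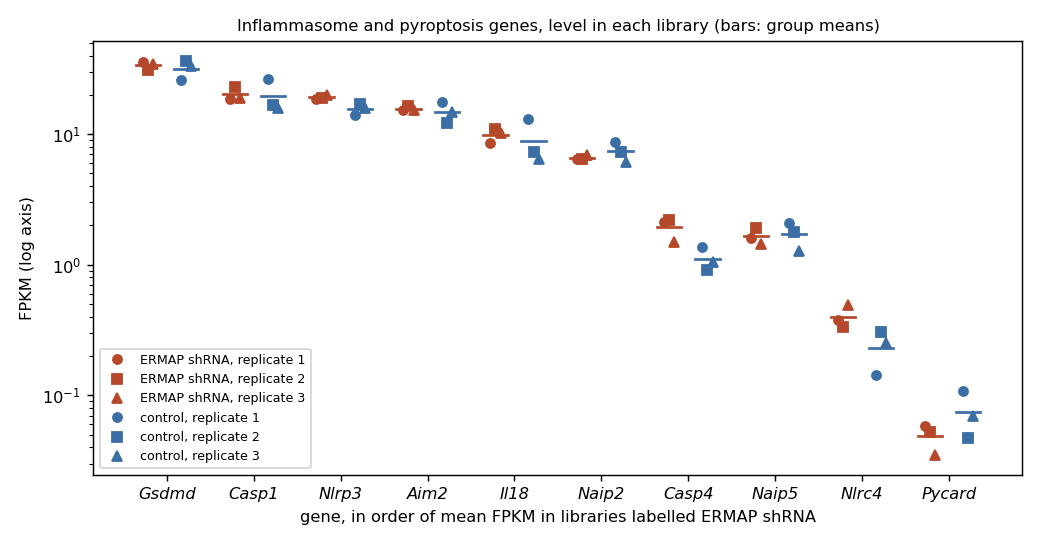
FPKM of the 10 genes in each library on a log axis, with shRNA-labelled libraries in red at the left of each pair, control in blue at the right, and horizontal bars for group means. Levels run from 33.7 FPKM for Gsdmd to 0.0486 FPKM for Pycard in the shRNA-labelled libraries, and control replicate 1 lies apart from the other controls for Casp1 and Il18.

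No member passed the test between the groups. Of the 9 tested members, edgeR's quasi-likelihood test called 0 at an adjusted p under 0.05, where 1.14% of all 12491 tested genes were called (126 or 1.01% higher, 17 or 0.136% lower). Without adjustment, 2 of the 9 had a p under 0.05 as higher genes (Casp4 and Nlrp3) and 0 as lower ones, against 3.71% and 3.04% of all tested genes. DESeq2 and limma-voom also called 0 members, beside 2.19% and 1.16% of all tested genes. The median log2 fold change of the 9 was 0.08, against -0.01 over all tested genes, and 7 were positive, as were 6035 of the 12491. In 3 members, Casp4, Nlrp3 and Nlrc4, every shRNA-labelled library lay above every control library, and in 0 members below, while 7.74% of all tested genes were separated upwards and 6.47% downwards. Without control replicate 1 edgeR called 1 of the 9, Casp4, as higher, beside 4.86% of all 12793 genes tested then.

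**Figure D2:**
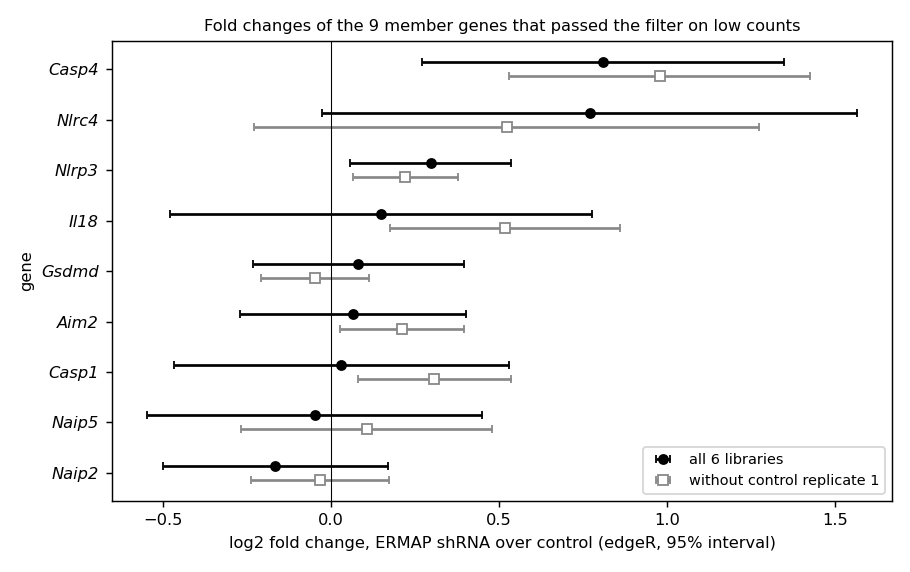
Log2 fold changes of the 9 tested members, shRNA-labelled libraries over control, with 95% intervals from edgeR, for all 6 libraries (black circles) and without control replicate 1 (open squares). Casp4 lies at 0.81 with all libraries and 0.98 without that control, and the intervals of Il18, Casp1 and Aim2 move above 0 when it is left out.

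Among the sensors, the groups stood apart in Nlrp3 and, at far lower counts, in Nlrc4. NLRP3 answers many triggers, including potassium efflux, and its gene is a classical target of priming through NF-kB. It had 76.4, 77.7 and 81.5 CPM in the shRNA-labelled libraries and 57.7, 69.9 and 64.4 CPM in control. The 2 groups did not overlap, with a gap between 76.4 and 69.9 CPM. The fold change was 1.23 (95% interval 1.04 to 1.45, log2 0.30, SE 0.10, edgeR adjusted p = 0.497), and without control replicate 1 the log2 value was 0.22 (edgeR adjusted p = 0.108). Nlrp3 (ENSMUSG00000032691) lies on the plus strand of chromosome 11 in mm10, from 59541568 to 59566956.

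Aim2 encodes a sensor of double-stranded DNA in the cytosol, and its groups overlapped. It had 54.0, 57.4 and 53.6 CPM in the shRNA-labelled libraries and 63.1, 43.0 and 51.7 CPM in control. The control values spanned the labelled ones on both sides. The log2 fold change was 0.07 (95% interval -0.27 to 0.40, edgeR adjusted p = 0.955), and 0.21 without control replicate 1 (edgeR adjusted p = 0.217). Aim2 lies on the plus strand of chromosome 1.

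The NAIP proteins bind bacterial flagellin or parts of the type III secretion system and hand the signal to NLRC4. Naip2, which recognises the inner rod protein, had 31.6, 31.7 and 33.5 CPM in the shRNA-labelled libraries and 42.9, 35.8 and 29.9 CPM in control. Naip5, a flagellin receptor, had 8.37, 10.05 and 7.59 CPM in the shRNA-labelled libraries and 10.9, 9.33 and 6.67 CPM in control. Both overlapped between groups, with log2 fold changes of -0.17 (95% interval -0.50 to 0.17) and -0.05 (95% interval -0.55 to 0.45), and edgeR adjusted p of 0.937 and 0.974. Without control replicate 1 the log2 values were -0.03 and 0.11. The genes sit side by side on the minus strand of chromosome 13, and close copies share their sequence: of all 50-base stretches in the longest coding transcript, 19.4% for Naip2 and 36.9% for Naip5 also occur in transcripts of other genes, mainly other Naip genes. How the counting assigned such reads is not given in the sources used here, so the split between the copies is uncertain.

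Nlrc4, the partner that oligomerises with NAIPs, was present at a far lower level than Naip2. It had 24, 24 and 35 counts in the shRNA-labelled libraries and 10, 24 and 18 counts in control, or 1.79, 1.60 and 2.33 CPM against 0.692, 1.45 and 1.19 CPM. The groups were apart by a narrow margin, 1.60 against 1.45 CPM. The fold change was 1.70 with a 95% interval of 0.981 to 2.96 (edgeR adjusted p = 0.767). Without control replicate 1 the log2 value was 0.52 instead of 0.77. Counts of this size leave changes from none to almost 3-fold within the interval.

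Pycard, the gene of the adaptor ASC, was almost silent in both groups. It had 3, 3 and 2 counts in the shRNA-labelled libraries and 6, 3 and 4 counts in control, of at least 13447021 counts in each library. The ratio of summed counts, 8 against 13, was 0.655 with an exact 95% interval of 0.235 to 1.70 that covers counting error only. Pycard did not pass the filter and was not tested. Its exons on chromosome 7 are overlapped over 12.8% of their length by Gm45205 on the other strand, and whether the counting used strand is not given, so some of these reads may not belong to it.

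The inflammatory caspases, Casp1 and Casp4, are neighbours on the plus strand of chromosome 9, with 1562 bases between the end of the first at 5307265 and the start of the second at 5308828. They share no 50-base stretch, so their reads can be told apart. To show how close they are and how their start regions differ, the 250 bases before the RefSeq start of each are printed here (GRCm38.p6, plus strand), Casp1 at chr9:5298267-5298516 and Casp4 at chr9:5308599-5308848. Capitals mark matches to the NF-kB consensus on either strand, which overlap each other in Casp4.
Casp1: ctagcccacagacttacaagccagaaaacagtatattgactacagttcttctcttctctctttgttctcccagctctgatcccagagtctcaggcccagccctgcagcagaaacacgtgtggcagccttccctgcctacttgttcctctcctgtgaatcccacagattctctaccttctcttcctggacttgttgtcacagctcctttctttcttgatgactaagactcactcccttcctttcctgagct
Casp4: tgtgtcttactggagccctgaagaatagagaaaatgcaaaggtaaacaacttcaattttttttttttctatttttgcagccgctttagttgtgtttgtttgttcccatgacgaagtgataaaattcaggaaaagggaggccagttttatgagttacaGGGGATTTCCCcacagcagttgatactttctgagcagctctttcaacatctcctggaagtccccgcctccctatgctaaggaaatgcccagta

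Casp4 had a higher mean in the shRNA-labelled libraries and passed the test only in some fits. Its fold change was close to that of Nlrc4, which was the larger of the pair in 4 of the 6 fits that left out 1 library. It had 7.99, 8.19 and 5.59 CPM in the shRNA-labelled libraries and 5.12, 3.43 and 3.90 CPM in control. No shRNA-labelled library fell below a control, although replicate 3 of the labelled group came near the highest control. The mean was 7.26 ± 1.45 CPM in the shRNA-labelled libraries and 4.15 ± 0.870 CPM in control (SD, n = 3 each). The fold change was 1.75 (95% interval 1.20 to 2.54, log2 0.81, SE 0.23, unadjusted p = 0.00877, edgeR adjusted p = 0.316). It was called higher without control replicate 1 (log2 0.98, edgeR adjusted p = 0.00603), with offsets for GC content (log2 0.91, edgeR adjusted p = 0.0168) and with library weights (log2 0.85, limma adjusted p = 0.0155). Over all 18 alternatives its log2 value stayed between 0.48 and 0.98 and its adjusted p between 0.00603 and 0.943.

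Casp1 next door did not separate the groups. It had 27.9, 34.7 and 28.3 CPM in the shRNA-labelled libraries and 40.4, 25.1 and 23.8 CPM in control. Control replicate 1 was the highest of all 6 libraries and the other controls the lowest. The log2 fold change was 0.03 (95% interval -0.47 to 0.53, edgeR adjusted p = 0.985), against 0.31 without control replicate 1 (95% interval 0.08 to 0.53, edgeR adjusted p = 0.129). The difference between the changes of Casp4 and Casp1 was not tested.

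Gsdmd, whose product forms the pore, had the highest mean FPKM of the members and a narrow interval of its fold change. It had 85.0, 74.6 and 82.0 CPM in the shRNA-labelled libraries and 62.6, 87.0 and 78.9 CPM in control. The groups overlapped, and control replicate 1 was the lowest library. The fold change was 1.06 with a 95% interval of 0.851 to 1.31 (edgeR adjusted p = 0.949), and the log2 value without control replicate 1 was -0.050 (95% interval -0.21 to 0.11). Gsdmd lies on the plus strand of chromosome 15, from 75862327 to 75867408.

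Il18, unlike Il1b, is a cytokine gene that many cells transcribe without a stimulus. It had 8.97, 11.2 and 10.5 CPM in the shRNA-labelled libraries and 13.6, 7.53 and 6.73 CPM in control. Control replicate 1 lay above every other library, and the other controls below every labelled one. With all libraries the log2 fold change was 0.15 (95% interval -0.48 to 0.78, edgeR adjusted p = 0.952), and without that control it was 0.52 (95% interval 0.18 to 0.86, edgeR adjusted p = 0.0793). With library weights, which gave control replicate 1 a weight of 0.0903, Il18 was called higher (log2 0.51, limma adjusted p = 0.0446), as was Nlrp3 (log2 0.27, limma adjusted p = 0.0168). That fit called 7.02% of all genes.

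The members' GC content ran alongside the deviation of control replicate 1. Casp4, Casp1, Il18 and Aim2 have transcripts of 41.0% to 43.2% GC and were higher in that library than in the mean of the other controls, by log2 values of 0.43, 0.71, 0.88 and 0.42. Gsdmd, with 54.7% GC, and Nlrp3, with 50.9% GC, were lower in it by log2 values of -0.40 and -0.22. Across all 12480 tested genes with a GC value Spearman's rho was -0.76, a description across genes that share a library. Nlrc4, at 47.0% GC and a deviation of -0.61, lay off this line on 10 counts. With a spline of GC content as offsets, chosen after the data were seen, Casp4 was the 1 member called, beside 3.67% of all tested genes (2.12% higher and 1.55% lower). The coefficient of variation of Il18 among controls was 40.2% with control replicate 1 and 7.86% among control replicates 2 and 3 alone. For Casp1 these values were 31.0% and 3.52%, while for Naip5 they were 24.0% and 23.6%. What set control replicate 1 apart was not tested.

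**Figure D3:**
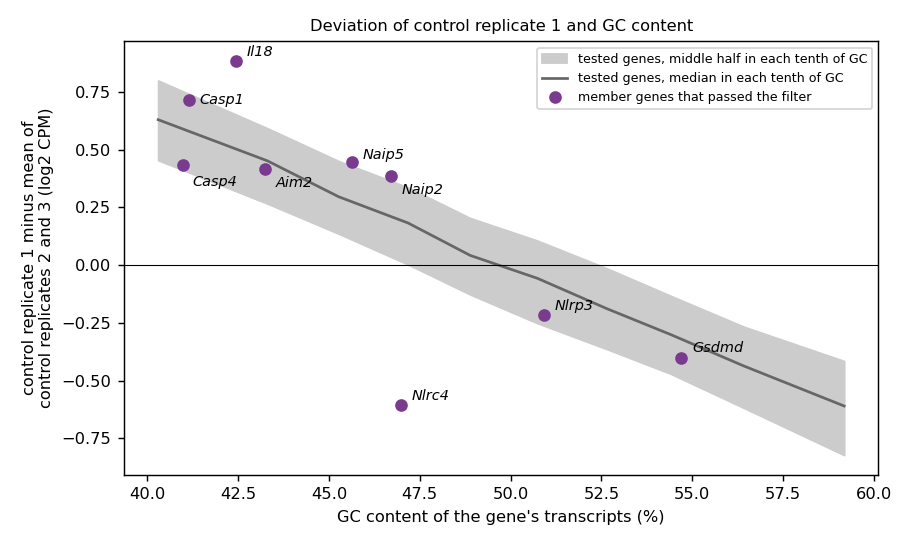
Control replicate 1 minus the mean of the other controls, in log2 CPM, against the GC content of each gene's transcripts, for the 9 tested members (purple points) and all tested genes (grey line, the median in each of 10 bins of GC; band, the quartiles). The members with the lowest GC lie above 0 and Gsdmd at 54.7% lies below it, following the grey line. Nlrc4 lies below the band and Il18 above it, with Naip5 and Naip2 slightly above its upper edge.

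In the rest of the pathway, the genes that rose were interferon-induced GTPases and 1 gene listed here as an inhibitor, and 0 fell. Over 8 further lists, 35 genes passed the filter and edgeR called 4: Irgm1, Irgm2, Gbp7 and Trim30a. Of all 12491 tested genes 1.01% were called higher and 0.136% lower. Guanylate-binding proteins and some immunity-related GTPases coat bacteria and vacuoles and thereby expose lipopolysaccharide to caspase-11. Whether Irgm1 or Irgm2 promotes such exposure, limits it or does neither was not tested. In the list of both families 3 of 4 tested genes rose, with a median log2 fold change of 2.46. Gbp7 and Gbp3 passed the filter only through their counts in the shRNA-labelled libraries. This share and this median are therefore in part set by the filter. Irgm1 had 56.9, 66.0 and 64.0 CPM in the shRNA-labelled libraries and 15.4, 16.1 and 17.2 CPM in control, a log2 fold change of 1.94 (SE 0.11, edgeR adjusted p = 7.66e-05). Irgm2 had 17.4, 19.6 and 19.6 CPM in the shRNA-labelled libraries and 3.94, 2.71 and 3.10 CPM in control, a log2 fold change of 2.54 (SE 0.18, edgeR adjusted p = 0.000257). All labelled libraries lay well above all controls in both genes.

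The guanylate-binding proteins themselves were scarce. Gbp7 had 33, 32 and 26 counts in the shRNA-labelled libraries and 2, 1 and 5 counts in control, with a log2 fold change of 3.54 (SE 0.49, edgeR adjusted p = 0.0134). Gbp3 had 16, 14 and 15 counts in the shRNA-labelled libraries and 0, 5 and 4 in control, and was not called (edgeR adjusted p = 0.246). Gbp2 and Gbp5, which promote the caspase-11 and AIM2 routes, did not pass the filter, with 6, 7 and 8 and with 4, 2 and 4 counts in the shRNA-labelled libraries, against 0, 0 and 1 and against 0 in all 3 controls. Gbp7 lost its call without any one labelled replicate and with the replicate numbers as a block.

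Inhibitors of the pathway were headed by Trim30a, described in mouse macrophages as a brake on NLRP3 activation. It had 47.3, 54.8 and 52.8 CPM in the shRNA-labelled libraries and 2.21, 2.17 and 2.31 CPM in control. The log2 fold change was 4.53 (SE 0.14, edgeR adjusted p = 4.99e-06), and close relatives of this gene can share its reads. Of the 6 listed inhibitors, 3 were tested, 1 rose and 0 fell. Tnfaip3, which encodes the NF-kB inhibitor A20, had a log2 fold change of 0.34 (edgeR adjusted p = 0.441). Pydc3 and Pydc4 were not analysed here.

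**Figure D4:**
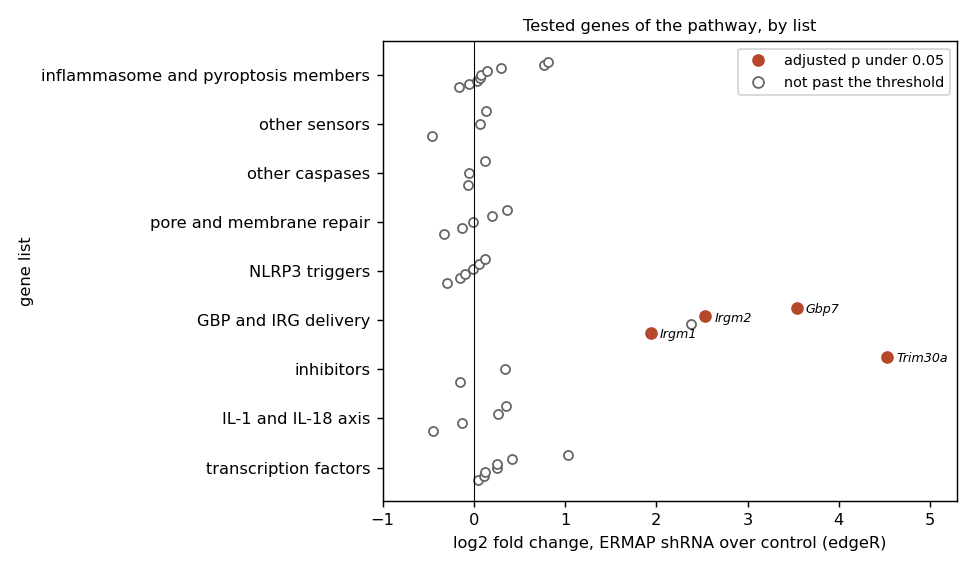
Log2 fold changes, shRNA-labelled libraries over control, of the tested genes of the members' list and 8 further lists, with filled red points for genes called by edgeR at an adjusted p under 0.05. The 4 called genes lie between 1.94 and 4.53, and all 9 members lie between -0.17 and 0.81.

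The start regions were searched for 3 textbook elements. The interferon-stimulated response element, searched as its core GAAANNGAAA on both strands in the 300 bases around each RefSeq start (250 before, 50 after), occurred in 3.4% of 32851 windows. It was found in all 7 listed GBP and IRG genes, of which 3 were called, and in Trim30a. Il1rap and Irf2 also held it and were not called (log2 fold changes of -0.13 and 0.04). It was found in 0 of the 9 members with a window, which is near the share over all windows and is no result about the members. To show the element, the 250 bases before the start of Irgm1 at chr11:48871421-48871670 (minus strand, printed in the direction of the gene) and of Gbp7 at chr3:142530086-142530335 (plus strand) are given with its matches in capitals. The 2 matches in Irgm1 overlap.
Irgm1: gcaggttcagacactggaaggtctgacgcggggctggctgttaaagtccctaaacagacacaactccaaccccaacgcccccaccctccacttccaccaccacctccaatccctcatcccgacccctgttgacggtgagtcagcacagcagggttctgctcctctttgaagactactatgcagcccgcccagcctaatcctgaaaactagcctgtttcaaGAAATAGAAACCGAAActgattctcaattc
Gbp7: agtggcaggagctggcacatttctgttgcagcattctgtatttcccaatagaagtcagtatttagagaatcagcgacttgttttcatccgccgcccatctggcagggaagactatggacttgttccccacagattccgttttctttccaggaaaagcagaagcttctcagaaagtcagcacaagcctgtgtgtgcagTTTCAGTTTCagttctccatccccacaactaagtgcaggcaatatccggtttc

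Matches to the NF-kB consensus occurred in 4.5% of all windows and in 3 of the 9 members, Nlrp3, Naip5 and Casp4. The core of PU.1, a factor that defines macrophages, was searched as GAGGAA and occurred in 28.3% of all windows and in 4 of the 9 members, Nlrp3, Aim2, Pycard and Casp1. The NF-kB consensus was adopted after the Casp4 window had been read. The patterns searched first were another NF-kB form, GGGANNNTCC, in 4.6% of all windows and the gamma-activated sequence TTCNNNGAA in 8.3%. Both were found in 0 of the 9 members. A match only says that these letters stand in the window, and no match says nothing about whether a factor acts on the gene.

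The remaining lists held no called gene. In each of these lists edgeR called 0. Without adjustment an edgeR p under 0.05 was met by 3 higher transcription factors, among them Irf1 and Nfkb1. It was also met by 1 lower sensor (Nlrp10) and 1 lower gene of the IL-1 and IL-18 axis (Il1rn, a receptor antagonist). DESeq2 called 1 gene, the factor not named here, as higher. That factor was also called higher by limma-voom with and without library weights, with GC offsets, with no filter and without control replicate 1. It was not called with other scalings, with FPKM or with the replicate block. Of 9 other sensors 3 passed the filter, and their median log2 fold change was 0.06. Nlrp10, the most abundant of them, had 17.9, 19.6 and 17.7 CPM in the shRNA-labelled libraries and 26.9, 26.1 and 22.6 CPM in control (log2 fold change -0.46, edgeR adjusted p = 0.254), and was called lower without control replicate 1 (log2 -0.41, edgeR adjusted p = 0.0305). Of the 4 other caspases 3 were tested, while Casp12 had 0 counts in the shRNA-labelled libraries and 1 in control. The median of that list was -0.06.

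Chmp4b, a subunit of the ESCRT-III complex that seals gasdermin pores, led the list of pore and membrane repair genes, with 79.0 ± 3.04 FPKM in the shRNA-labelled libraries and 61.1 ± 14.0 FPKM in control (SD, n = 3 each, edgeR adjusted p = 0.765). The median log2 fold change of its 5 tested genes was -0.01. Txnip, whose product binds NLRP3, was the most abundant trigger gene, with 132 ± 5.20 FPKM in the shRNA-labelled libraries and 126 ± 8.62 FPKM in control (SD, n = 3 each, edgeR adjusted p = 0.951). The median over the 6 trigger genes was -0.06.

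In the IL-1 and IL-18 axis, 4 of 10 genes passed the filter: Il18rap, Il1rap, Il1rn and Il18bp. Il1b, the other main substrate of caspase-1, had 10, 2 and 1 counts in the shRNA-labelled libraries and 4, 1 and 6 counts in control, and Il1a had 1, 2 and 1 against 0, 1 and 6. Il18rap, the accessory chain of the IL-18 receptor, was the most abundant gene of the list, with 37.3, 43.5 and 32.1 CPM in the shRNA-labelled libraries and 37.0, 25.1 and 26.5 CPM in control (log2 fold change 0.35, edgeR adjusted p = 0.870). It was called higher without control replicate 1 (log2 0.54, edgeR adjusted p = 0.00438). Its partner Il18r1 had 3 counts in 1 labelled library and 0 in the other 5 libraries.

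All 7 transcription factors listed for the members had positive values, with a median log2 fold change of 0.25. With all libraries edgeR called 0 of them, while DESeq2, limma-voom and other alternatives did call a factor as higher. Spi1, which encodes PU.1, was the most abundant, with 139 ± 7.32 FPKM in the shRNA-labelled libraries and 128 ± 31.2 FPKM in control (SD, n = 3 each, edgeR adjusted p = 0.949). Irf2, a factor needed for Gsdmd transcription, had a log2 fold change of 0.04 (edgeR adjusted p = 0.961), and Irf8, known to control Naip genes, of 0.26 (edgeR adjusted p = 0.825).

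Casp4 had the lowest p of the members with a mean of at least 5 CPM, and the genes whose pattern over the 6 libraries was most like it were Lgals8, Hdlbp and Pitrm1. Their Pearson r with Casp4 was 0.991, 0.973 and 0.971 in log2(CPM + 1), the highest among 9856 genes, as a description of 6 libraries that include the group difference. None of the 3 was called, with log2 fold changes of 0.23, 0.09 and 0.23 and edgeR adjusted p of 0.767, 0.937 and 0.611.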

How the data were processed

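The authors deposited whole-number read counts and FPKM values per gene and library for 54532 genes. The submitters' processing notes name HISAT2 and the build mm10. No source used here gives the counting program, its strand setting or a version. FPKM equals count over listed gene length and 1 constant per library, as a check of the deposited FPKM values against the counts showed, and the authors' group means equal the column means, so they were not used. Counts were tested with edgeR 4.0.16 (quasi-likelihood, limma 3.58.1, R 4.3.3) with TMM factors, a robust fit, filterByExpr (minimum count 10) and p-values adjusted by Benjamini-Hochberg over 12491 genes, called under 0.05. The test was tried on simulated data. DESeq2 1.42.0, limma-voom, library weights, other scalings and filters, FPKM with limma-trend, leaving out each library and a replicate block were alternatives. Intervals on summed counts cover counting error only.

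Replicate numbers are those of the table columns, which name the group but could not be tied to single samples. Library pairs within a group differed by more than sampling noise. The members and lists were chosen with earlier results of these data known. Named are all members, each list's called and most abundant gene, Ermap, and the 3 genes most like 1 member; other named list genes were chosen after their values were seen. Some genes of these lists are not reported here. GC content and shared stretches come from GENCODE vM21, promoter windows from RefSeq (GRCm38.p6), which held 9 of the 10 members.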

Additional observations from a re-analysis of the deposited data

How the results depend on the processing

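The count of 0 called members held in each alternative other than library weights (3: Casp4, Nlrp3 and Il18), GC offsets (1, Casp4) and leaving out 1 library (0 to 1, with 1 without control replicate 1). Casp4, Nlrp3 and Nlrc4 stayed above 0 in all 18 alternatives. Directions of members near 0 turned with library weights, to 0.053 for Naip2 and 0.20 for Naip5 (log2). Leaving out 1 library at a time, Naip5 ranged from -0.22 to 0.11, turning without labelled replicate 3 or control replicate 1. Aim2 ranged from -0.065 to 0.21, turning without control replicate 2, and Casp1 from -0.10 to 0.31, turning without labelled replicate 2, control replicate 2 or control replicate 3. Gsdmd ranged from -0.050 to 0.18, turning without control replicate 1, and Il18 from -0.034 to 0.52, turning without control replicate 3. Of all genes, DESeq2 called 202 higher and 71 lower, library weights 468 and 409, an adjusted p under 0.01 82 and 3, the replicate block 81 and 3, no filter 32 lower, and an adjusted p under 0.1 43 lower, against 126 and 17. Leaving out 1 library gave 73 (without labelled replicate 3) to 342 higher and 3 to 280 lower, the highest of each without control replicate 1. Outside the fit with library weights, the pathway lists held 3 to 8 called genes, with 3 under the replicate block. The 8 came without control replicate 1, where 4.86% of all tested genes were called. With library weights the lists held 10 genes called higher and 2 called lower, beside 7.02% of all tested genes. Same-numbered columns did not deviate together (correlations of -0.19, -0.38 and 0.27), so the block has no support as a pairing. Stricter thresholds call fewer genes by construction; other causes were not tested. Pycard and Nlrc4 are limited by their counts. The GC offsets were chosen after seeing the data.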
